A study of Bos taurus with 22 samples.

Results

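The glucose transporters SLC2A1, SLC2A3, SLC2A4 and SLC2A5 and the hexokinases HK1 and HK2 were followed in subcutaneous adipose tissue of cattle. Members were the array probe sets whose only annotated gene symbol was one of these 6. They came to 7 probe sets of 5 genes, of 24016 bovine probe sets and 9155 named genes on the array. SLC2A1, SLC2A3, SLC2A4 and HK1 had 1 probe set each and SLC2A5 had 3. No probe set carried the single symbol HK2, so HK2 was not analysed here.

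The postpartum group held 11 arrays from Holstein heifers sampled 14 days after their first calving. The prepartum group held 11 arrays from heifers sampled 30 days before it, and by the labels these were the same animals. All calved at 24 to 28 months of age, were raised on one farm with no dietary treatment, and were sampled in a dorsal fat depot. Feeding before and after calving is described separately in the labels, and any part of it in the differences was not tested. The titles end in a code, of unstated meaning, that separates 5 cows (called array set 1 here) from 6 others (array set 2).

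Glucose enters fat cells by facilitated diffusion through SLC2A proteins. Hexokinases then phosphorylate it to glucose 6-phosphate, which keeps it in the cell and passes it to glycolysis, the pentose phosphate pathway or glycogen. In ruminant fat, acetate rather than glucose is the main carbon source for fatty acids, and glucose mainly supplies glycerol phosphate and NADPH. SLC2A1 (GLUT1) is the widely expressed transporter of basal glucose uptake, and SLC2A4 (GLUT4) is the insulin-responsive one of fat and muscle. SLC2A3 (GLUT3) is a high-affinity transporter best known from neurons and blood cells, and SLC2A5 (GLUT5) is a fructose transporter.

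The tissue label was borne out by adipocyte markers. The fatty acid binding protein FABP4 and the hormone ADIPOQ stood at or above the 99.9th and the 95.2nd percentile of probe sets in every array. Some arrays also carried markers of other tissues. The summed signal of the 15 skeletal muscle markers on the array, of 17 listed, ran from 1670 to 95100 postpartum, with the highest value in cow 384 and the second highest, 10500, in cow 386. It ran from 1776 to 60160 prepartum, with the highest value in the array labelled cow 387 and the second highest, 8047, in cow 384. The marker CKM went the other way, with its lowest postpartum signal in cow 384 (546) and its lowest prepartum signal in cow 387 (448). The sum of 11 keratinocyte markers, of 18 listed, ran from 271 to 385 postpartum and from 265 to 11460 prepartum, where cows 330, 331, 341 and 382 stood highest at 1038, 1002, 11460 and 4715. No marker of either list was at 0. Blood cell markers varied too. The sum of 8 neutrophil markers, of 11 listed, ran from 428 to 7744 postpartum and from 452 to 2873 prepartum. It was lower postpartum in 6 of 11 cows and stood highest then in cows 382 (7744), 346 (5249) and 330 (3766). All 6 tested neutrophil markers had a positive mean postpartum minus prepartum log2 change (median 0.51). None of them had a limma adjusted p under 0.05. For 3 platelet markers, of 6 listed, the sum was lower postpartum in 7 of 11 cows. Postpartum it reached 1460 in cow 346 and 1062 in cow 330, against 74.5 to 518 prepartum. Any part of blood cells in the member values was not tested. The pairing of cow 387 was not borne out: its 2 arrays deviated from their group means with a correlation of -0.09, against 0.18 to 0.43 for the other 10 cows. Its prepartum array correlated best with the postpartum array of cow 384 (0.64). Those 2 arrays had the highest muscle sums of their groups (60160 and 95100). A mislabelled sample and muscle content cannot be told apart by these correlations, and neither was tested. The prepartum arrays of cows 330, 341 and 384 also correlated better with the postpartum array of another cow (0.25, 0.31 and 0.30) than with that of their own (0.18, 0.23 and 0.21).

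Of the members, SLC2A1 fell after calving and was the only one of the 3 tested genes to pass limma's test. SLC2A4 and HK1 were kept by the signal filter but did not pass the test, and SLC2A3 and all 3 SLC2A5 probe sets lay below the filter on dim signals. By mean signal SLC2A1 stood at the 64.3rd percentile of probe sets, SLC2A4 at the 52.6th and HK1 at the 90.6th. In the background 3.71% of 6984 tested genes were called in either direction and 2.16% were called lower. A call here means an adjusted p under 0.05 in a fit to the 14410 probe sets left by a filter at the 40th percentile of mean signal. Values were taken as log2(signal + 7.78), a scale that understates the change of dim genes, and all changes are postpartum minus prepartum.

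**Figure D1:**
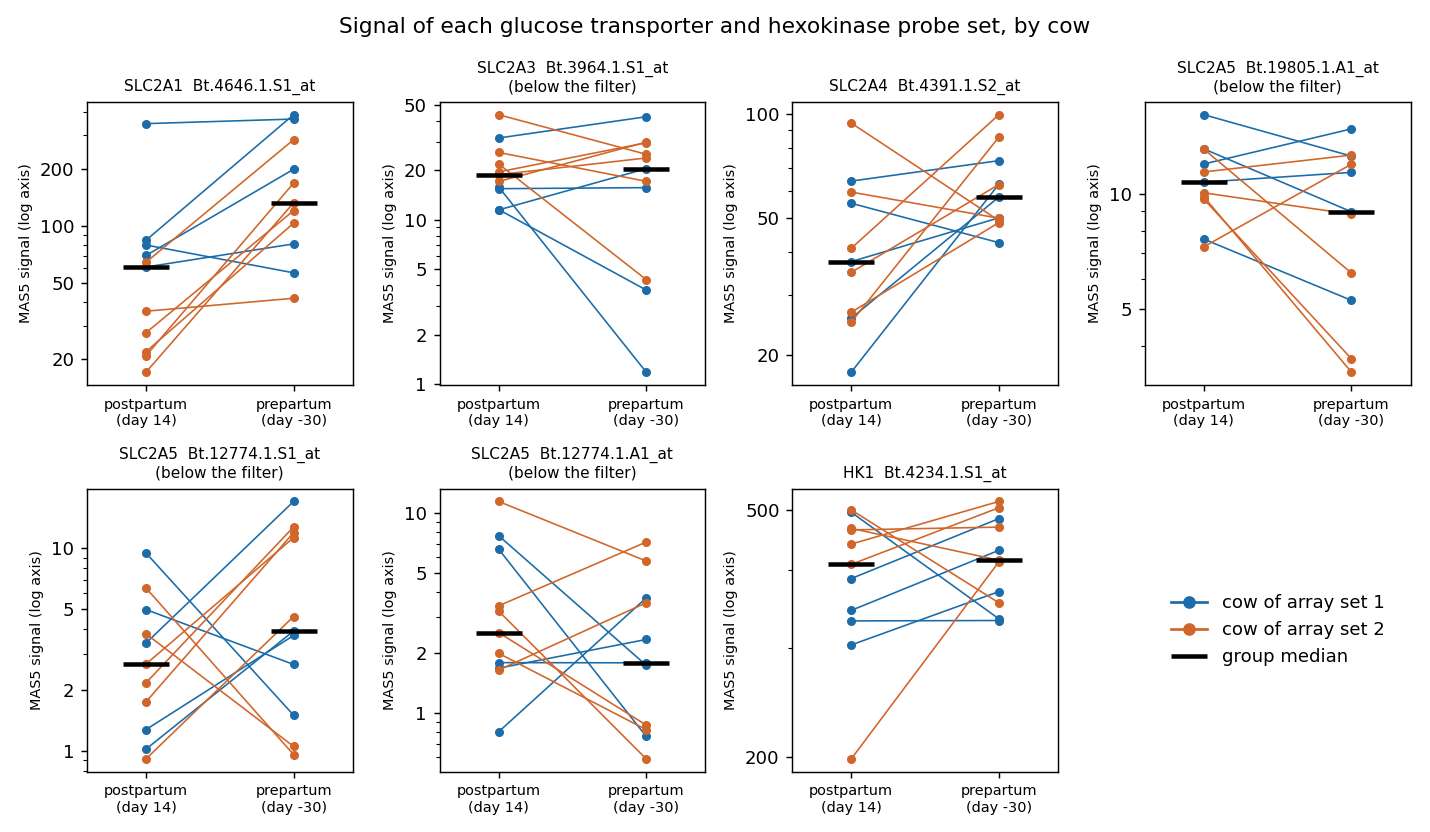
MAS5 signal (log axis) of each of the 7 member probe sets in 11 cows, postpartum on the left and prepartum on the right, with a line for each cow coloured by array set and a black bar at the group median. The SLC2A1 median was 61.0 postpartum and 133 prepartum, and the HK1 medians were 409 and 416.

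SLC2A1 had a signal of 17.1 at the lowest, 61.0 at the median and 346 at the highest in postpartum fat, against 41.8, 133 and 385 in prepartum fat. The ranges overlapped, but 5 postpartum arrays lay below every prepartum array and 1 lay above the prepartum median. That array belonged to cow 347, whose signal was high at both times, at 346 postpartum and 365 prepartum.

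Within cows, SLC2A1 was lower postpartum in 10 of 11. It fell 2.51-fold on average (log2 change -1.33, limma SE 0.28, limma adjusted p = 0.0183). The 95% interval, from the unmoderated SD over cows, was -2.05 to -0.60. An exact two-sided sign-flip test over the 11 cows gave p = 0.00586. The mean level was 5.91 ± 1.10 log2 units postpartum and 7.23 ± 0.99 prepartum (SD, n = 11 each). This was the 26th most negative change among 6984 genes. In bulk tissue, fewer cells of a type and less RNA per cell cannot be told apart.

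The size of the SLC2A1 change was uneven among cows. In 7 cows it lay between -2.62 and -1.41 log2 units, and in the other 4 between -0.36 and 0.44. Cow 346 had the largest fall, with a signal of 20.9 postpartum against 168 prepartum. In the array labelled cow 387 the signal was 17.1 postpartum against 133 prepartum. Cow 360 was the one with a higher postpartum value, 79.6 against 56.8 prepartum. The 3 lowest prepartum signals were those of cows 330 (41.8), 360 (56.8) and 338 (80.7), all among the 4 cows with small changes. The change contains the prepartum value, so level and change are not independent, and their relation was not tested.

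SLC2A1 also varied more between cows than most genes. Its highest postpartum signal was 20.2 times the lowest, and its highest prepartum signal was 9.21 times the lowest. Its SD between cows exceeded that of 98.4% of tested genes postpartum and 99.0% prepartum. Cows high prepartum were not detectably high postpartum (Pearson r = 0.47, permutation p = 0.145; Spearman rho = 0.40, permutation p = 0.223; adjusted p = 0.435 and 0.624 over 6 relations; r = 0.45 without cows 330 and 331).

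The call for SLC2A1 was near the threshold. It was lost without the replicate block (adjusted p = 0.0854), in an ordinary paired test (0.0686) and without cow 382 (log2 change -1.27, adjusted p = 0.0504), and held with any other single cow left out (0.0119 to 0.0479). The change was -1.14 without cows 384 and 387 (adjusted p = 0.0331).

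Keratinocyte markers were lower postpartum in 9 of 11 cows in their summed signal, alongside SLC2A1. Only 2 of them were tested and neither was called, KRT10 with a change of -1.77 (limma adjusted p = 0.102) and KRT5 with -0.02 (adjusted p = 0.959). The 4 prepartum arrays with the highest keratinocyte sums had SLC2A1 signals of 385 (cow 331), 199 (cow 341), 104 (cow 382) and 41.8 (cow 330), which include both the highest and the lowest of the prepartum group. Without these 4 cows the SLC2A1 change was -1.29 and did not pass (limma adjusted p = 0.289). That fit called 6 probe sets in all, against 494 with every cow. The sum of the 4 peripheral nerve markers on the array, of 8 listed, was also lower postpartum in 9 of 11 cows (477 to 1066 postpartum, 689 to 1432 prepartum), with none at 0. The 2 tested nerve markers went opposite ways, S100B with a change of -0.61 (limma adjusted p = 0.0538) and MBP with 0.23 (adjusted p = 0.567). The sum of 12 adipocyte markers, of 14 listed, was lower in 7 of 11 (17060 to 37380 postpartum, 26030 to 38720 prepartum), with none at 0, and LEP (-1.78, limma adjusted p = 0.0268), LPL (-1.18, adjusted p = 0.0323) and GPD1 (-0.93, adjusted p = 0.0451) were called lower among them. Of the 12 adipocyte markers, 8 had a negative change and 4 a positive one (median -0.23), with FABP4 at 0.08 and ADIPOQ at 0.0009. The sum of 12 endothelial markers, of 13 listed, was lower in 3 of 11 cows (2382 to 6514 postpartum, 3771 to 5380 prepartum), and VWF (0.66, adjusted p = 0.00392) and TEK (0.61, adjusted p = 0.013) were called higher. Of 11 tested endothelial markers, 7 had a positive change and 4 a negative one (median 0.18). All 10 tested macrophage and monocyte markers had a positive change and none was called (median 0.34), with 11 of 15 on the array, sums of 2192 to 12210 postpartum and 2246 to 5699 prepartum, and a lower sum in 4 of 11 cows. No marker of these lists was at 0. Any part of keratinocytes, nerve, adipocytes, endothelium or macrophages in the SLC2A1 result was not tested.

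SLC2A4 had a signal of 17.9 at the lowest, 37.4 at the median and 94.4 at the highest postpartum, against 42.4, 57.6 and 99.8 prepartum. In 7 of 11 postpartum arrays it lay below every prepartum array, and in the other 4 the groups overlapped. The mean level was 5.57 ± 0.60 log2 units postpartum and 6.09 ± 0.34 prepartum (SD, n = 11 each).

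The SLC2A4 change of -0.52 log2 units (SE 0.20, limma adjusted p = 0.174) did not pass, with 8 of 11 cows lower, a 95% interval of -1.03 to -0.003 and an exact two-sided sign-flip p = 0.0527. Cows 384, 347 and 386 were higher postpartum, at 94.4 against 49.2, 55.2 against 42.4 and 59.5 against 50.0 prepartum. The largest falls were those of cow 346 (25.0 postpartum, 85.9 prepartum) and cow 341 (17.9 postpartum, 62.7 prepartum).

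The brightest SLC2A4 array in each group was also the one with the most muscle signal. Postpartum this was cow 384 (94.4), and prepartum it was the sample labelled cow 387 (99.8). The arrays second in muscle signal were cow 386 postpartum, with SLC2A4 at 59.5 above the group median of 37.4, and cow 384 prepartum, with 49.2 below the group median of 57.6. Skeletal muscle itself expresses SLC2A4, and its part in these values was not tested. Without cow 384 the change was -0.65 and passed (adjusted p = 0.0456). Without cows 384 and 387 it was -0.60 and did not (adjusted p = 0.0746). With single cows left out the change ranged from -0.65 to -0.42.

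**Figure D2:**
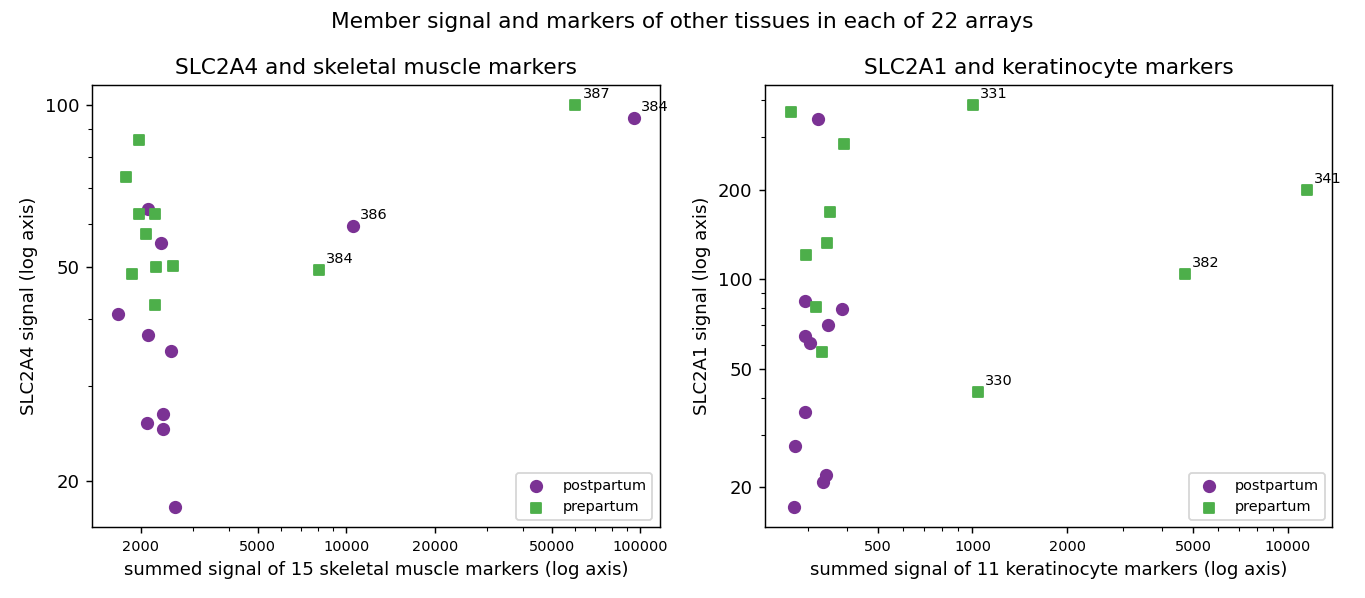
Signal of SLC2A4 against the summed signal of 15 skeletal muscle markers (left) and of SLC2A1 against that of 11 keratinocyte markers (right) in each of the 22 arrays, all on log axes, with arrays of raised marker sums labelled by cow. The 2 arrays with the most muscle signal (95100 and 60160) had the highest SLC2A4 of their groups. SLC2A1 in the 4 arrays with the most keratinocyte signal ran from 41.8 to 385.

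HK1, the widely expressed hexokinase that binds mitochondria, was bright, with a mean above 90.6% of probe sets. Its SD between cows exceeded that of 64% of tested genes postpartum and 40% prepartum. Its signal was 199 at the lowest, 409 at the median and 501 at the highest postpartum, against 332, 416 and 517 prepartum. The ranges overlapped, with 3 postpartum arrays below every prepartum array and 2 prepartum arrays above every postpartum one. The lowest value was that of cow 384 postpartum, where the adipocyte sum was lowest (17060) and the muscle sum highest.

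HK1 had a change of -0.11 log2 units (SE 0.12, limma adjusted p = 0.649, 8 of 11 cows lower; exact two-sided sign-flip p = 0.421). The 95% interval of -0.41 to 0.18 covers small shifts in either direction. Without cow 384 the change was -0.02 log2 units. Levels averaged 8.61 ± 0.39 log2 units postpartum and 8.73 ± 0.23 prepartum (SD, n = 11 each).

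SLC2A3 was dim, with a mean at the 34.2nd percentile. Its signal was 11.5 at the lowest, 18.9 at the median and 43.7 at the highest postpartum, against 1.18, 20.5 and 42.5 prepartum. The groups overlapped, with 5 of 11 cows higher postpartum and the lowest values, of cows 360 (1.18) and 341 (3.74), in the prepartum group. In a fit with no filter its change was 0.21 log2 units (SE 0.20, limma adjusted p = 0.702), where 1.58% of 24016 probe sets were called.

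SLC2A5 was at the bottom of the signal range in all 3 probe sets. The brightest had signals of 7.28 to 16.1 (median 10.7) postpartum and 3.42 to 14.8 (median 8.98) prepartum. The second ran from 0.916 to 9.49 (median 2.69) postpartum and from 0.963 to 17.0 (median 3.92) prepartum, and the dimmest from 0.806 to 11.4 (median 2.52) postpartum and from 0.59 to 7.14 (median 1.78) prepartum.

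The 3 SLC2A5 probe sets did not move together. In the same order, their changes in the fit with no filter were 0.18 (SE 0.13, limma adjusted p = 0.547), -0.28 (SE 0.20, adjusted p = 0.562) and 0.14 log2 units (SE 0.13, adjusted p = 0.677). No detection calls were used here, so whether low signals of SLC2A5 or of any other member exceeded background was not tested.

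Whether the 3 tested genes changed by different amounts was tested within cows. SLC2A1 fell more than HK1 (difference of changes -1.21 log2 units, SD 1.12, 9 of 11 cows; exact two-sided sign-flip p = 0.0107, adjusted p = 0.0322 over 3 pairs). SLC2A1 and SLC2A4 did not differ past the threshold (-0.81, SD 1.25, 8 of 11 cows, 95% interval -1.65 to 0.03; exact p = 0.0654, adjusted p = 0.0981), and neither did SLC2A4 and HK1 (-0.40, SD 1.12, 7 of 11 cows, 95% interval -1.15 to 0.35; exact p = 0.246, adjusted p = 0.246). A call for SLC2A1 and none for SLC2A4 therefore does not show that the transporters differed. Without cow 360 the difference of SLC2A1 from SLC2A4 was -1.03 (adjusted p = 0.0322). That of SLC2A1 from HK1 lost its call without any one of 7 cows (adjusted p = 0.0645 each).

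**Figure D3:**
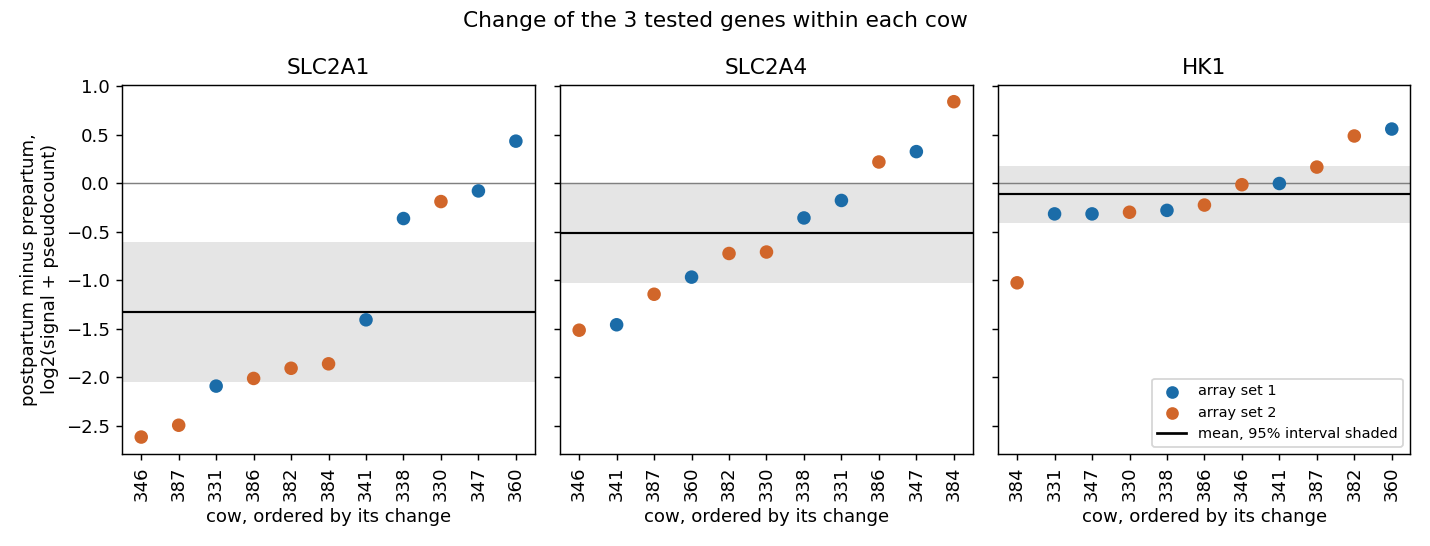
Postpartum minus prepartum difference on the log2(signal + pseudocount) scale for SLC2A1, SLC2A4 and HK1, with a point for each of 11 cows ordered by its change and coloured by array set, the mean as a line and its 95% interval shaded. For SLC2A1 10 of 11 cows lie below 0, and for SLC2A4 and HK1 8 of 11 do.

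Cow 346 had the largest fall in both SLC2A1 and SLC2A4, but no relation between those changes was detected over all cows. Across 11 cows, changes of SLC2A1 and SLC2A4 had r = 0.11 (permutation p = 0.738) and rho = 0.27 (permutation p = 0.416), and those of SLC2A1 and HK1 had r = 0.10 (permutation p = 0.776) and rho = -0.02 (permutation p = 0.966). Changes of SLC2A4 and HK1 correlated negatively (r = -0.71, permutation p = 0.0133; rho = -0.75, permutation p = 0.0116), but not past the threshold over 6 relations (adjusted p = 0.0798 and 0.0696). Without cows 384 and 347 that r was -0.44, and rho was not computed without them.

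SLC2A1 had a negative mean change in both array sets. It averaged -0.70 ± 1.03 log2 units in set 1 (SD, n = 5) and -1.85 ± 0.87 in set 2 (SD, n = 6), and limma passed it in neither set alone (adjusted p = 0.312 and 0.099). All 6 cows of set 2 and 4 of 5 of set 1 were lower postpartum. The difference between sets was -1.15 (SE 0.49, limma unadjusted p = 0.034, adjusted p = 0.997). SLC2A4 averaged -0.53 and -0.51 in sets 1 and 2, and HK1 -0.07 and -0.15. Limma's interaction test called 0 of 14410 probe sets (0%), with 516 at an unadjusted p under 0.05.

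Related genes of glucose handling were followed in 9 lists. Of 80 tested genes 2 were called (2.5%), against 3.71% of all tested genes, a share near the background. The count was 6 without cow 384, 5 without cow 387, 9 without both and 7 with array weights, 0 without cow 338, 341, 346 or 386 and 1 without any other single cow. The median change of all tested genes was 0.01 log2 units. Of 12 other sugar transporters 5 were on the array and 2 were tested, SLC2A6 with a change of -0.09 (adjusted p = 0.828) and the intracellular transporter SLC2A8 with -0.04 (adjusted p = 0.921). Of 5 other glucose-phosphorylating enzymes and the glucokinase regulator, 2 were tested. The leukocyte hexokinase HK3 had a change of 0.31 (adjusted p = 0.501), and ADPGK, an ADP-dependent glucokinase, of 0.09 (adjusted p = 0.687).

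SLC2A4 reaches the cell surface in vesicles, and 16 of 19 listed trafficking genes were tested. EXOC7, a subunit of the exocyst that tethers these vesicles, rose by 0.31 log2 units (SE 0.07, limma adjusted p = 0.0308, 10 of 11 cows) as the 1 call, against 1.55% of all tested genes called higher. The call was lost on leaving out any of 8 cows. The trafficking list was split between 8 positive and 8 negative changes with a median of 0.02. None of 8 tested genes between the insulin receptor and glucose uptake was called (median 0.01). The closest were GSK3B, a kinase that restrains glycogen synthase (-0.35, adjusted p = 0.0671), and PIK3CA, a phosphoinositide 3-kinase subunit (0.23, adjusted p = 0.207). GSK3B passed with quantile normalization (adjusted p = 0.049), with array weights (0.0314) and without cow 387 (0.0217) or cows 384 and 387 (0.0179).

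Downstream of glucose 6-phosphate, more changes were negative than positive in glycolysis and the pentose phosphate pathway. In glycolysis 14 of 16 tested genes had a negative change (median -0.16), and the aldolase ALDOC fell by 0.55 log2 units (SE 0.13, limma adjusted p = 0.0309, 11 of 11 cows) as the 1 call. It was lost with no replicate block (adjusted p = 0.137), with cow as a random effect (0.0529), in the ordinary paired test (0.0676) and on leaving out any of 5 cows. All 6 tested pentose phosphate genes had a negative change (median -0.31) and none was called. Among them were PGD, an NADPH-producing dehydrogenase (-0.51, adjusted p = 0.069, 10 of 11 cows lower), and the transketolase TKT (-0.40, adjusted p = 0.195). PGD passed with array weights (adjusted p = 0.0237) and without cow 384 (0.0383), cow 387 (0.0299) or both (0.00788), and TKT passed without both (0.0141). Over all tested genes, 47.4% had a negative change.

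The remaining lists had medians near that of all genes. None of 11 tested glycogen and hexosamine genes was called (median -0.01). The glycogen branching enzyme GBE1 had a change of -0.45 (adjusted p = 0.0515, 10 of 11 cows lower). GBE1 passed with no replicate block (adjusted p = 0.028), with cow as a random effect (0.011), with quantile normalization (0.0459), median centring (0.0441), the 60th percentile filter (0.0441) or array weights (0.0134), and without cow 384 (0.025), cow 387 (0.022) or both (0.00777). UGP2, which makes UDP-glucose, had a change of 0.28 (adjusted p = 0.17). None of 6 fructose genes was called (median 0.04), with 0.27 for the ketohexokinase KHK (adjusted p = 0.229) and 0.23 for TKFC (adjusted p = 0.23). Of 13 transcription factors linked to these genes none was called (median -0.06). SREBF1, a regulator of lipid synthesis, had a change of -0.44 (adjusted p = 0.151) and NR1H3, the liver X receptor alpha, of 0.21 (adjusted p = 0.169).

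**Figure D4:**
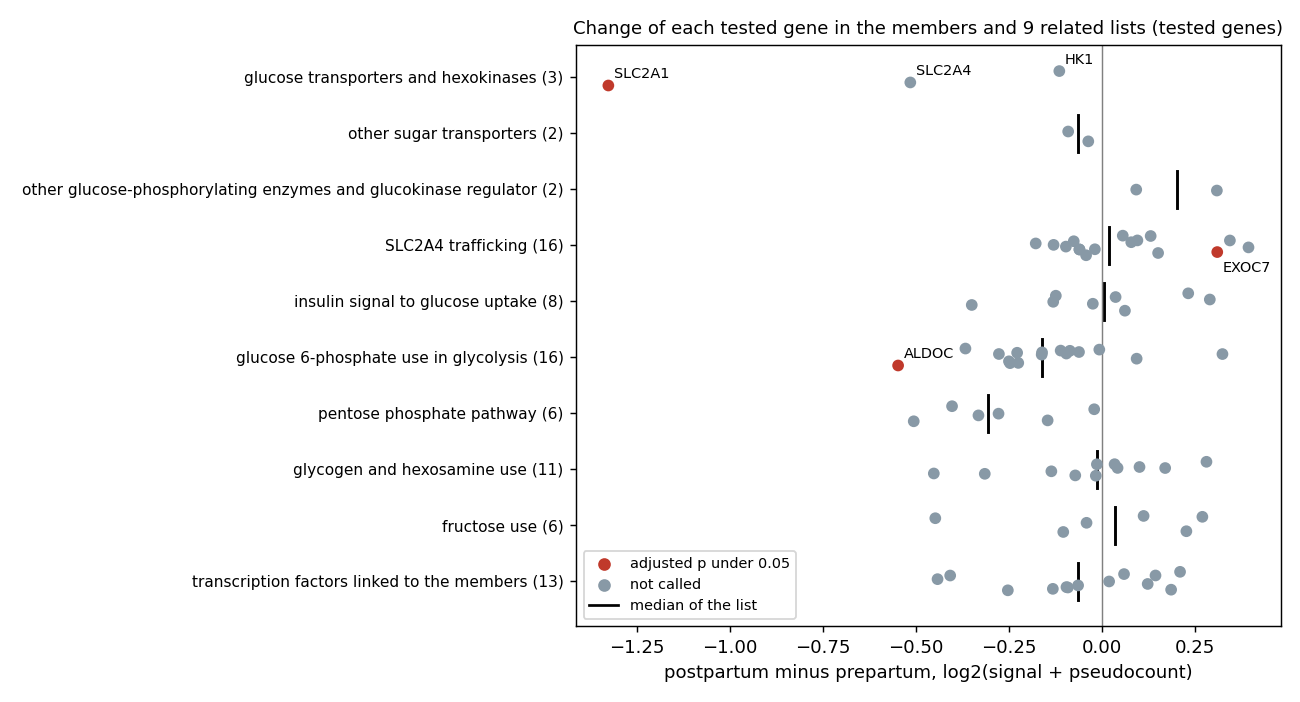
Postpartum minus prepartum change (log2 scale) of each tested gene among the glucose transporters and hexokinases and in 9 related lists, with the number tested in parentheses, called genes in red and list medians as black bars. SLC2A1 at -1.33 lies farthest from 0, and of the lists ALDOC (-0.55) and EXOC7 (0.31) were called.

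Genes with the most similar pattern were ranked by Pearson r over the 22 arrays, which share cows and tissue admixture. For SLC2A1 they were PTI, a trypsin inhibitor (r = 0.82, rho = 0.82), SLC18A2, the vesicular monoamine transporter (r = 0.81, rho = 0.82), and SLC11A2, a divalent metal transporter (r = 0.81, rho = 0.86). PTI had a log2 change of -1.08 (limma adjusted p = 0.00288), SLC18A2 of -0.65 (adjusted p = 0.03) and SLC11A2 of -0.25 (adjusted p = 0.267).

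For SLC2A4 the nearest genes were the kinase PAK6 (r = 0.85, rho = 0.81), GPD1, which makes glycerol phosphate from a glycolytic intermediate (r = 0.80, rho = 0.79), and the aldolase ALDOA (r = 0.80, rho = 0.77). For HK1 they were BSCL2, the lipid droplet protein seipin (r = 0.89, rho = 0.81), the kinesin KIF3B (r = 0.88, rho = 0.80) and the actin-severing protein GSN (r = 0.86, rho = 0.76). HK1 had 119 genes above r = 0.7, SLC2A4 had 24 and SLC2A1 had 13.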

How the data were processed

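The members and gene lists were chosen with earlier results of these data known. Per the submitters' processing notes the authors used MAS5 to summarise probe sets. The MAS5 version, like a genome build, is not given in the sources used here. Intensities were deposited by the authors on a linear scale. Their trimmed mean, over the central values after dropping 2% from either tail, was 125 for each array, which shows scaling by array. Arrays have no read depth, and their number limits precision. Of 24128 probe sets, 112 controls were left out. A symbol was taken only where the annotation gave 1 (13292 probe sets, with several for 86 and none for 10638), and 13263 were updated through Entrez to a RefSeq table of the ARS-UCD2.0 assembly. No coordinates were used.

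Intensities were taken as log2(signal + 7.78), the pseudocount being the median 20th percentile. Probe sets below the 40th percentile of the mean were left out, and the brightest kept probe set stood for a gene. Differences were tested with limma's moderated test (version 3.58.1 in R 4.3.3), with cow as a block, a trend of variance on intensity, and p-values adjusted by Benjamini-Hochberg across 14410 probe sets. Titles pair the arrays by cow, and the design describes paired sampling of the same animals. After subtraction of group means, arrays of one cow correlated at 0.18 to 0.43 in 10 cows and at -0.09 in cow 387. Sign-flip tests used all 2048 sign patterns, and correlations 100000 permutations. Intervals are 95% intervals of the mean over cows, from the SD between cows without limma's moderation. Each SE is limma's moderated one. The test was tried on simulated data. Named genes were all members, the called genes of each list or else its 2 with the smallest p, and the 3 genes most like each tested member. Genes that a tissue check is about were named too. Alternatives concerned the pairing, the scaling between arrays, the pseudocount, the filter, the variance, array weights, the array sets and cows left out. Figures used matplotlib 3.10.9 in Python 3.11.15.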

Additional observations from a re-analysis of the deposited data

How the results depend on the processing

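All alternatives were planned. SLC2A1 kept its negative change in all of them (-0.70 to -1.85), and lost the call with no replicate block (-1.33, adjusted p = 0.0854), in an ordinary paired test (-1.33), within set 1 (-0.70) and set 2 (-1.85) on their own, and on leaving out cows 330, 331, 341 and 382 (-1.29), and also without cow 382 alone (-1.27). Leaving out single cows gave -1.5 to -1.2 for SLC2A1, -0.651 to -0.415 for SLC2A4 and 0 to 2 called member genes, against 1. No member was called with no replicate block, in the ordinary paired test, in either array set alone or without those 4 cows (0 each). The difference of SLC2A1 from HK1 was -0.63 in set 1 (where 5 cows are too few for the sign-flip test to pass), -1.7 in set 2, -1.09 without cows 384 and 387 and -1.12 without the 4 cows, none of them past the threshold, and -1.36 to -1.07 without single cows; that of SLC2A1 from SLC2A4 was -1.03 to -0.623.

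Against 494 probe sets, 291 were called in the ordinary paired test, 1076 with array weights, 69 in set 1, 0 in set 2 (1502 at an unadjusted p under 0.05 by limma), 1083 without cows 384 and 387, 6 without the 4 cows, and 243 to 985 when leaving out 1 cow. The pathway lists held 2 called genes, and 4 with quantile normalization, 1 in the ordinary paired test, 7 with array weights, 0 in either set, 9 without cows 384 and 387, 0 without the 4 cows, and 0 to 6 when leaving out 1 cow. With no replicate block 338 probe sets were called, and with cow as a random effect 708.

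Small uncalled values changed sign. The difference between array sets for HK1 was 0.115 with array weights, 0.0582 without cows 384 and 387, and -0.209 to 0.0941 when leaving out 1 cow. For SLC2A4 it was -0.00229 with a pseudocount of 32, -0.319 with array weights, -0.155 without cows 384 and 387, -0.0669 without the 4 cows, and -0.248 to 0.235 when leaving out 1 cow. HK3 was -0.0872 in set 1 and SLC2A8 0.219 in set 2. Without single cows SLC2A6 ran from -0.178 to 0.0146 and SLC2A8 from -0.121 to 0.0458. The cause was not tested.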
